A study of Mus musculus with 4 samples.

Results

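Acute-phase protein genes were followed in whole mouse brain after injection of lipopolysaccharide (LPS), the endotoxin of Gram-negative bacteria. The set held 10 genes (Saa1, Saa2, Saa3, Orm1, Orm2, Hp, Lcn2, Lrg1, Lbp and Cp) out of 23461 genes named on the array. They were chosen by name, as genes of plasma proteins that are known to increase in inflammation, with earlier results of these data known. Each was found through the RefSeq accession of its probes. All 10 genes had a probe, with 14 probes among 56605 on the array. Of the 10 genes, 7 were well above background on all 4 arrays (Saa1, Saa2, Hp, Lcn2, Lrg1, Lbp and Cp), and Saa3 on both LPS arrays only. Orm1 was well above background on 1 array, and Orm2 was so on 0 arrays. Of all 23461 genes, 16253 were well above background on all arrays and 5515 on 0 arrays.

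The 4 groups were Nav1.8CreROSA26DTA mice given LPS, wild-type mice given LPS, Nav1.8CreROSA26DTA mice given phosphate-buffered saline (PBS) and wild-type mice given PBS, with 1 array in each group. In Nav1.8CreROSA26DTA mice, Cre made under Scn10a, which encodes the voltage-gated channel Nav1.8, turns on diphtheria toxin A from the ROSA26 locus, which kills the cells of that lineage, chiefly nociceptive sensory neurons whose cell bodies lie in ganglia outside the brain. The dose of LPS was 20 mg/kg of body weight, injected intraperitoneally, and brains were taken 12 hours later. The labels state time and dose for LPS alone, and the strain, age and sex of the mice, and whether an array held RNA of 1 mouse or of a pool, are not given in the sources used here. The comparisons ask what LPS did to these genes in the brain, and whether their levels at rest or their responses differed in mice without Nav1.8-lineage neurons.

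In the acute-phase response, cytokines such as interleukin 6 and interleukin 1 make the liver change its output of plasma proteins, through the transcription factors STAT3, C/EBP-beta, C/EBP-delta and NF-kB. Serum amyloids A, orosomucoids, haptoglobin and LPS-binding protein are classical products of hepatocytes in this response, whereas lipocalin 2 and ceruloplasmin are also known to be made by glia and endothelium in the inflamed brain. Neutrophils carry haptoglobin, lipocalin 2 and LRG1 in their granules.

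Several of the genes lie side by side in the mouse genome. On chromosome 7, Saa1 lies between Saa4 and Saa2, and Saa3 is the neighbour of Saa4 on the other side. On chromosome 4, Orm3 lies between Orm1 and Orm2. Lcn2 and Lbp are on chromosome 2, Cp on chromosome 3, Hp on chromosome 8 and Lrg1 on chromosome 17. RefSeq promoter windows of the build GRCm38.p6, each of 300 bases (250 before and 50 after the annotated start), were matched for 7 of the 10 members, with 8 windows because Cp had a pair. Windows of 5 members are shown because they hold the same short motif and belong to the genes with the steepest responses or to the gene that was not detected. Capitals mark a match to the C/EBP-type motif TTGCNNAA on either strand, in Saa1 (chr7:46742931-46743230, minus strand), Saa2 (chr7:46751583-46751882, plus strand), Saa3 (chr7:46715627-46715926, minus strand), Lcn2 (chr2:32387690-32387989, minus strand) and Orm2 (chr4:63362199-63362498, plus strand).
Saa1: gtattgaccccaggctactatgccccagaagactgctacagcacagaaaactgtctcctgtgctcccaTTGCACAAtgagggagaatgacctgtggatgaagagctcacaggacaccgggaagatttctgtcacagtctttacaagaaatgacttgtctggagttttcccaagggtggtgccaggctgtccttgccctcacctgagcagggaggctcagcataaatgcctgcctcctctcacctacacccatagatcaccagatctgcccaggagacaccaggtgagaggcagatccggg
Saa2: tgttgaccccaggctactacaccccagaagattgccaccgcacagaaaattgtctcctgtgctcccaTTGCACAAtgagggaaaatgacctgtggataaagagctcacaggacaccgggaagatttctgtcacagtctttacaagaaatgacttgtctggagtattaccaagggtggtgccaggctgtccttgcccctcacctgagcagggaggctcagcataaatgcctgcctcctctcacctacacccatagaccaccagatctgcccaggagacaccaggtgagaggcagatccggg
Saa3: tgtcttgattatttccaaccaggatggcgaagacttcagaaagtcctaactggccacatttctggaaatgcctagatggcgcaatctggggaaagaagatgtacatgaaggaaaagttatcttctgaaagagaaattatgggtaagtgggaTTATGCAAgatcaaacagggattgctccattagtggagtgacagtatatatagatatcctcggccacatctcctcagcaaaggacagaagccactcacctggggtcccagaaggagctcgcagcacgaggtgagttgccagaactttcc
Lcn2: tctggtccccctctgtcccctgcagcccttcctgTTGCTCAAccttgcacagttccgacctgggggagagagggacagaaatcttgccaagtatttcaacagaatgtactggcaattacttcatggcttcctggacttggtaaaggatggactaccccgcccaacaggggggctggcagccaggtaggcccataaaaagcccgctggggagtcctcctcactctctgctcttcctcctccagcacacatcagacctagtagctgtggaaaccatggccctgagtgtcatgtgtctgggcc
Orm2: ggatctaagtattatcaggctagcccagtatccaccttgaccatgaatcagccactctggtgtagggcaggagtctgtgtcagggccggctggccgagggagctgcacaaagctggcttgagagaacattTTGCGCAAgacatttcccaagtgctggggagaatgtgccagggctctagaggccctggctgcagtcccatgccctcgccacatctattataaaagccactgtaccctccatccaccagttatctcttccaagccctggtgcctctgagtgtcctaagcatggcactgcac

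The Saa1 and Saa2 windows were identical at 287 of 301 aligned positions (95.3%), whereas Saa1 and Saa3 shared 53.4% of aligned positions, and Saa1 and Lcn2 shared 54.2%. The motif began 182 bases before the start of Saa1, 183 before Saa2, 99 before Saa3, 216 before Lcn2 and 120 before Orm2. One of the Cp windows also held it, 70 bases before the start, so that 6 of the 7 members with a window had a match and Lrg1 had none. The same motif was found in 10.8% of all 32851 windows. The STAT motif TTCNNNGAA, present in 8.3% of all windows, and the NF-kB consensus, present in 8.46%, were found in the windows of 0 members. A match describes letters in the window and is no evidence of binding, and a window without one says only that these letters are not in it. Hp, Lbp and Orm1 are named only. Because Saa1 and Saa2 are near-identical copies, a probe for one may also bind RNA of the other, and their values are uncertain in that respect.

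The arrays shared 1 slide and 1 scan. LPS and PBS arrays occupied separate rows of that slide and the genotypes separate columns, so slide position cannot be told apart from group. Of 59305 non-control spots per array, 66.5% to 69.5% were well above background and 0 were saturated. All 7 neuronal and all 8 astrocyte markers were well above background on every array, as were 16253 of all 23461 genes. Values below are the processed signal of a spot, which carries no scaling between arrays, whereas differences are of log2 signal after subtracting each array's 75th percentile. That percentile was 726 (Nav1.8CreROSA26DTA LPS), 634 (wild-type LPS), 514 (Nav1.8CreROSA26DTA PBS) and 612 (wild-type PBS). The signal of one probe says nothing about that of another, so levels are compared only between arrays. Fewer cells of a type and less RNA per cell cannot be told apart in whole tissue.

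LPS raised every acute-phase gene that could be measured on all arrays. The 7 such genes all passed the limma test, against 5.62% of the 17141 genes tested that were called higher with LPS (Benjamini-Hochberg adjusted p under 0.05 over all genes tested). In all 7, both LPS arrays lay above both PBS arrays, which held for 21.7% of genes tested. Because the members were chosen with earlier results of these data known, these counts are descriptions and no test of the set. Their averaged effects ranged from 2.65 to 8.30 on the log2 scale with a median of 3.44, beside a median of −0.03 over all genes tested. Saa3 is described by its lower bound below and is not among the 7. Each averaged effect sets 2 arrays against 2, its standard error draws on 1 residual degree of freedom of the gene and 8 borrowed from genes of similar intensity, and, with 1 array in each group, no p-value here covers variation from animal to animal.

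**Figure D1:**
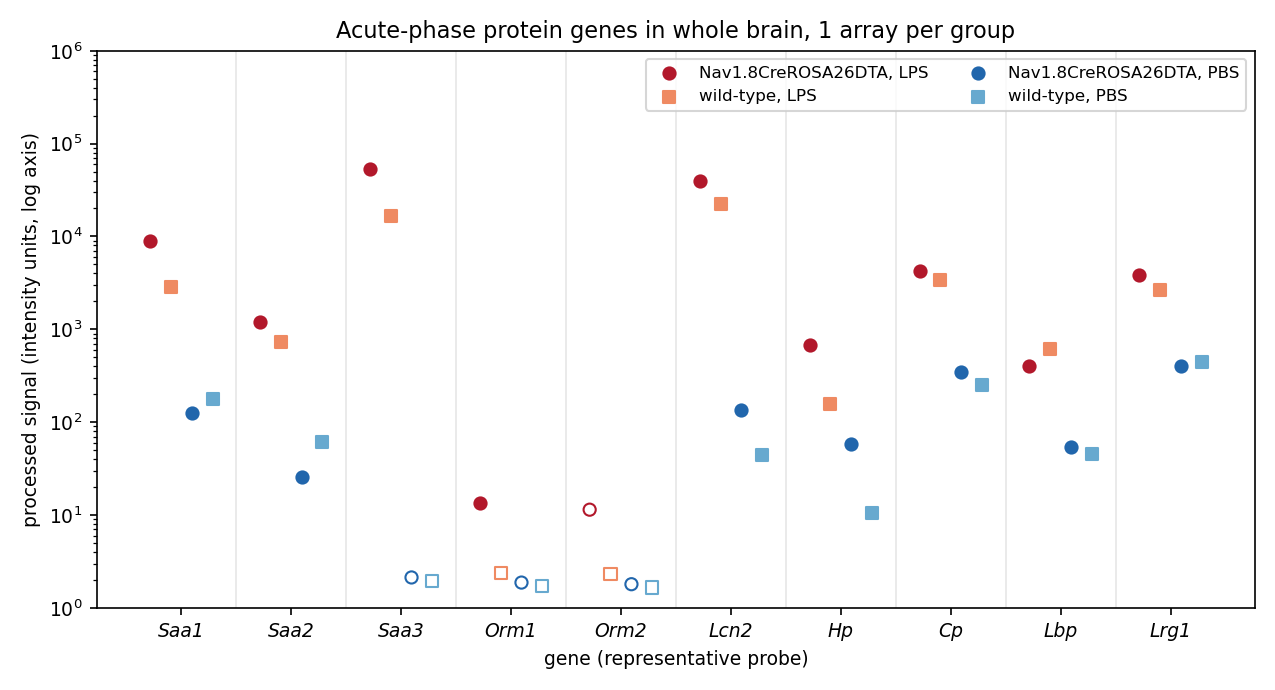
Processed signal (log axis) of the representative probe of each of the 10 genes on each of the 4 arrays, with circles for Nav1.8CreROSA26DTA, squares for wild-type, reds for LPS, blues for PBS and open symbols for signals not well above background. In the 7 genes measured throughout, both LPS symbols lie above both PBS symbols; Saa3 is open on both PBS arrays, Orm1 is filled on the Nav1.8CreROSA26DTA LPS array only, and Orm2 is open everywhere.

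The serum amyloid A genes had some of the steepest changes. They encode small apolipoproteins that load onto high-density lipoprotein in inflammation, and Saa3 is the isoform made mainly outside the liver in mice. The Saa3 signal was 53592 in Nav1.8CreROSA26DTA and 16737 in wild-type brain with LPS, against 2.12 in Nav1.8CreROSA26DTA and 1.95 in wild-type brain with PBS. It was thus bright on both LPS arrays and dim, not well above background, on each PBS array. With the PBS arrays taken at their lowest signal well above background, Saa3 was at least 3113-fold higher with LPS on average, at least 4552-fold in Nav1.8CreROSA26DTA and at least 2129-fold in wild-type mice. Because Saa3 passed the filter on dim genes through its LPS arrays, its fitted effect and p-value are not given as support.

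Saa1 gave a signal of 8907 in Nav1.8CreROSA26DTA and 2823 in wild-type brain with LPS, against 124 in Nav1.8CreROSA26DTA and 178 in wild-type brain with PBS. Saa2 gave 1209 in Nav1.8CreROSA26DTA and 728 in wild-type brain with LPS, against 25.5 in Nav1.8CreROSA26DTA and 61.1 in wild-type brain with PBS. For both genes the groups did not overlap, and Nav1.8CreROSA26DTA brain had the higher value with LPS and the lower one with PBS. Saa1 rose by 4.80 ± 0.31 (log2, limma standard error, adjusted p = 1.45e-05), which was 50.9-fold in Nav1.8CreROSA26DTA and 15.3-fold in wild-type mice. Saa2 rose by 4.30 ± 0.30 (adjusted p = 2.14e-05), which was 33.6-fold in Nav1.8CreROSA26DTA and 11.5-fold in wild-type mice.

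The orosomucoids (alpha-1-acid glycoproteins, which bind drugs and other small molecules in plasma) stayed near the limit of detection. Orm1 had a signal of 13.4 in Nav1.8CreROSA26DTA and 2.36 in wild-type brain with LPS, against 1.87 in Nav1.8CreROSA26DTA and 1.71 in wild-type brain with PBS. Only the first of these was well above background, so Orm1 was at least 1.14-fold higher with LPS than with PBS in Nav1.8CreROSA26DTA mice and at least 1.11-fold higher than in wild-type mice given LPS. Orm2 had 11.4 in Nav1.8CreROSA26DTA and 2.32 in wild-type brain with LPS, against 1.8 in Nav1.8CreROSA26DTA and 1.65 in wild-type brain with PBS, and was well above background on 0 arrays. Neither gene entered the test. Orm3, their neighbour, was likewise well above background only on the Nav1.8CreROSA26DTA LPS array, at 20.3.

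Lcn2 had the largest averaged effect among the 7 genes measured on all arrays. It encodes lipocalin 2, which binds bacterial siderophores and so withholds iron. The signal of its representative probe was 39361 in Nav1.8CreROSA26DTA and 22206 in wild-type brain with LPS, against 135 in Nav1.8CreROSA26DTA and 44.5 in wild-type brain with PBS. Both LPS arrays stood far above both PBS arrays, and Nav1.8CreROSA26DTA brain was the higher of the pair under each injection. The averaged rise was 8.30 ± 0.23 (log2, limma adjusted p = 8.74e-08), number 3 by size among 17141 genes, and was 206-fold in Nav1.8CreROSA26DTA and 482-fold in wild-type mice. A further Lcn2 probe gave 10578 in Nav1.8CreROSA26DTA and 5479 in wild-type brain with LPS, against 23.2 in Nav1.8CreROSA26DTA and 1.89 in wild-type brain with PBS. The last of these was not well above background, so that probe was higher with LPS by 8.34 (log2) in Nav1.8CreROSA26DTA and at least 697-fold in wild-type mice.

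Cp encodes ceruloplasmin, a copper-carrying ferroxidase that helps iron leave cells and that astrocytes are known to carry in a membrane-anchored form. Its representative probe gave 4198 in Nav1.8CreROSA26DTA and 3418 in wild-type brain with LPS, against 349 in Nav1.8CreROSA26DTA and 253 in wild-type brain with PBS. The groups did not overlap, and on this probe Nav1.8CreROSA26DTA was the higher under each injection. Cp rose by 3.40 ± 0.14 (limma adjusted p = 1.13e-06), by 3.09 in Nav1.8CreROSA26DTA and 3.71 in wild-type mice.

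The 4 Cp probes did not report the same change. A second probe of the same transcript accession differed by 2.09 in Nav1.8CreROSA26DTA and 3.17 in wild-type mice. A probe assigned to the transcript NM_001276248 differed by 1.33 in Nav1.8CreROSA26DTA and 1.91 in wild-type mice. The probe assigned to NM_001276250 gave 247 in Nav1.8CreROSA26DTA and 210 in wild-type brain with LPS, against 167 in Nav1.8CreROSA26DTA and 134 in wild-type brain with PBS. After scaling it differed by 0.07 in Nav1.8CreROSA26DTA and 0.60 in wild-type mice. All 4 probes were well above background on all arrays, so the size of the LPS difference depended on the probe. The scaled genotype difference with LPS was near 0 on every Cp probe and differed in sign, at 0.10 on the representative probe, 0.04 on that of NM_001276250, and −0.10 on each of the other 2.

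**Figure D2:**
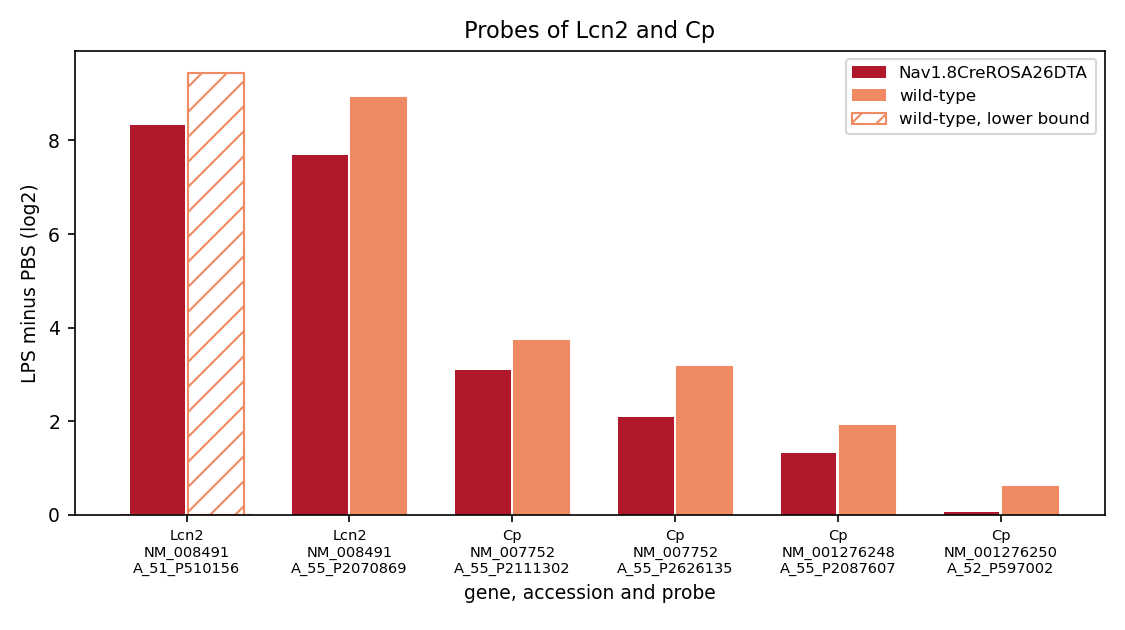
LPS minus PBS difference (log2, bars from 0) of each probe of Lcn2 and Cp, in Nav1.8CreROSA26DTA (dark red) and wild-type (light red), with a hatched bar for a lower bound where the wild-type PBS signal was not well above background. Across the 4 Cp probes the difference runs from 3.09 down to 0.07 in Nav1.8CreROSA26DTA and from 3.71 down to 0.60 in wild-type mice.

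Hp encodes haptoglobin, which captures free haemoglobin. Its signal was 674 in Nav1.8CreROSA26DTA and 155 in wild-type brain with LPS, against 58.2 in Nav1.8CreROSA26DTA and 10.5 in wild-type brain with PBS. The 4 values were well spread, with wild-type PBS lowest and Nav1.8CreROSA26DTA LPS highest, and the injections did not overlap. Hp rose with LPS by 3.44 ± 0.23 (limma adjusted p = 1.77e-05), which was 8.20-fold in Nav1.8CreROSA26DTA and 14.3-fold in wild-type mice. The LPS call ended without the wild-type PBS array (2.08, adjusted p = 0.217) and without the Nav1.8CreROSA26DTA LPS array (2.48, adjusted p = 0.311), in fits that count a genotype difference as spread. Over 13 alternatives the averaged effect ranged from 2.03 to 4.80.

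Lbp encodes LPS-binding protein, which hands LPS to CD14 and the TLR4 complex. Its signal was 404 in Nav1.8CreROSA26DTA and 606 in wild-type brain with LPS, against 53.4 in Nav1.8CreROSA26DTA and 45.5 in wild-type brain with PBS. Both LPS arrays were above both PBS arrays, and among the 7 genes Lbp alone was lower in Nav1.8CreROSA26DTA than in wild-type brain with LPS. The averaged rise was 3.05 ± 0.26 (limma adjusted p = 8.6e-05), 5.36-fold in Nav1.8CreROSA26DTA and 12.9-fold in wild-type mice. Lrg1 encodes leucine-rich alpha-2-glycoprotein 1, a secreted modulator of TGF-beta signalling in vessels. It gave 3802 in Nav1.8CreROSA26DTA and 2679 in wild-type brain with LPS, against 400 in Nav1.8CreROSA26DTA and 443 in wild-type brain with PBS. Its groups did not overlap, and the genotypes lay close together under each injection. Lrg1 rose by 2.65 ± 0.11 (limma adjusted p = 8.1e-07), 6.72-fold in Nav1.8CreROSA26DTA and 5.85-fold in wild-type mice.

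Leaving out 1 array at a time kept the LPS direction of the 7 genes measured on all arrays. The averaged effect then ranged from 4.07 to 5.53 for Saa1, from 3.79 to 4.80 for Saa2, from 2.08 to 4.80 for Hp, from 7.37 to 9.23 for Lcn2, from 2.49 to 2.80 for Lrg1, from 2.66 to 3.44 for Lbp and from 3.04 to 3.76 for Cp. All of these members but Hp passed the test in each of those fits, with a highest adjusted p of 0.0175, for Lbp. The Lbp call ended when the intensity trend was left out of the variance model (adjusted p = 0.0556, the highest over its alternatives).

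**Figure D3:**
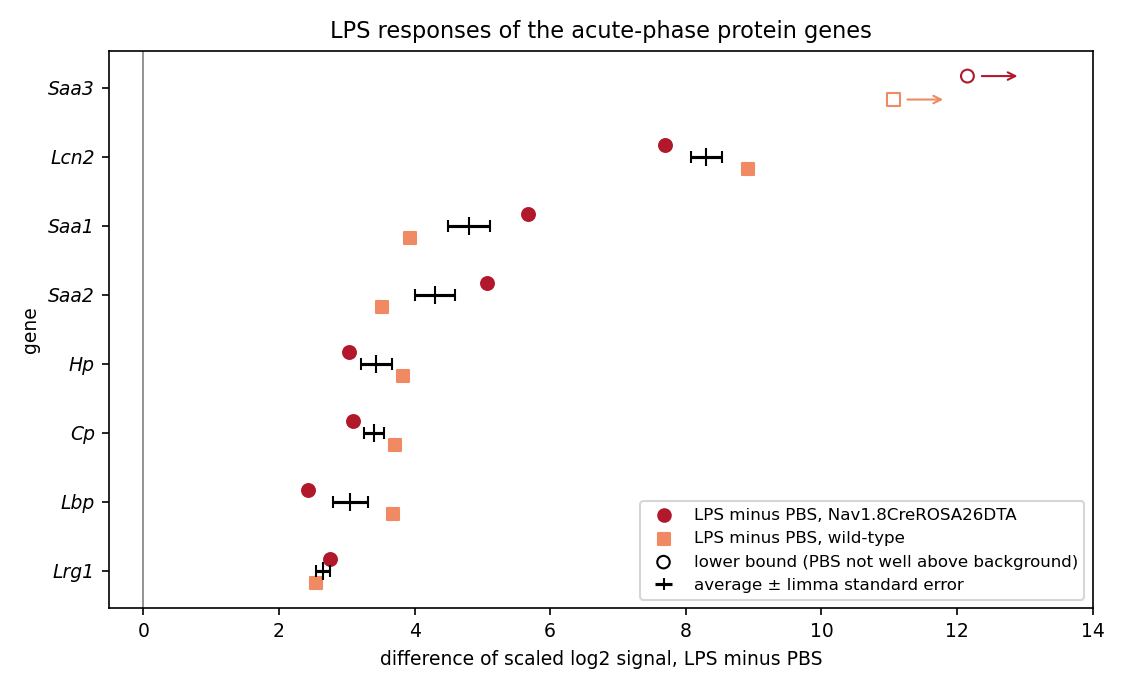
LPS minus PBS difference (log2) of the 8 tested genes in Nav1.8CreROSA26DTA (circles) and wild-type (squares), with black bars for the average and limma's standard error, and open symbols with arrows for the lower bounds of Saa3. The circle lies right of the square for Saa1, Saa2 and Lrg1 and left of it for Lcn2, Hp, Cp and Lbp, and the averages run from 2.65 for Lrg1 to 8.30 for Lcn2.

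Within each genotype all 7 genes were at least 2-fold higher with LPS, where 3.11% of genes measured on both arrays were in Nav1.8CreROSA26DTA and 3.43% in wild-type mice. The median rise of the 7 was 3.09 in Nav1.8CreROSA26DTA and 3.71 in wild-type mice. The sizes of the responses differed between genotypes in both directions. The Nav1.8CreROSA26DTA response less the wild-type response was 1.73 for Saa1 and 1.55 for Saa2, which were the 2 genes of 7 with a response at least 2-fold larger in Nav1.8CreROSA26DTA, against 0.972% of 16253 genes. It was −1.23 for Lcn2 and −1.26 for Lbp, the 2 genes with a response at least 2-fold smaller, against 1.54% of genes. For Hp it was −0.80, for Cp −0.62 and for Lrg1 0.20. Over all genes measured on 4 arrays the median was −0.03, with a 5th percentile of −0.605 and a 95th percentile of 0.527. With 1 array in each group this difference has no test. With another background correction (normexp) it was 1.64 for Saa1, 0.75 for Saa2, −0.54 for Lcn2 and −1.04 for Lbp, and for Hp it turned to 0.63.

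**Figure D4:**
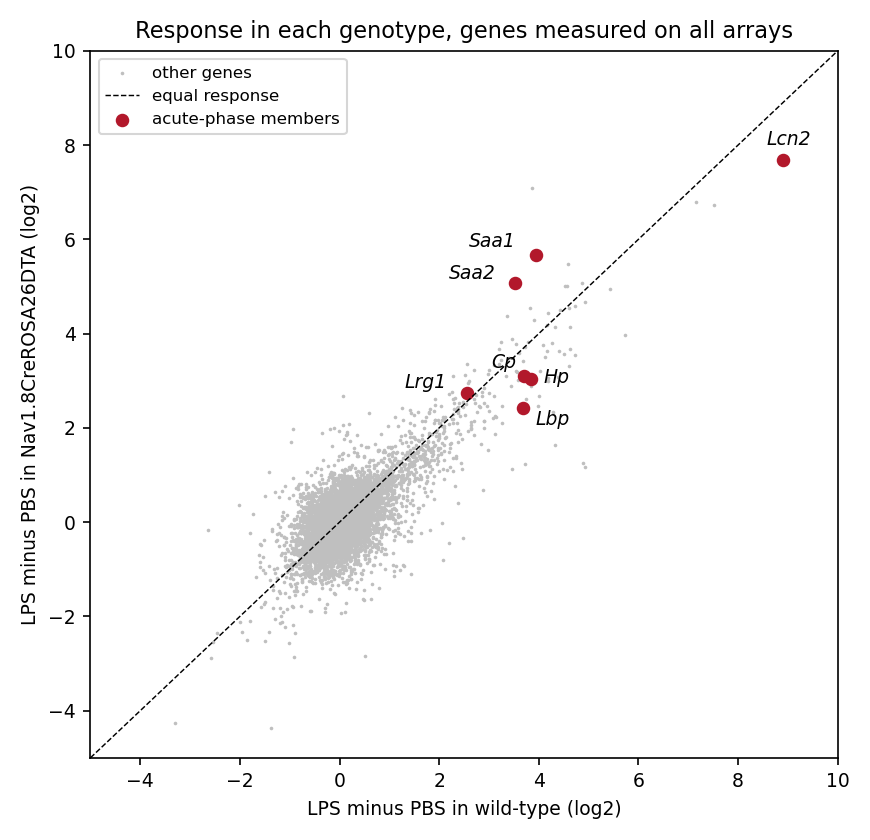
LPS minus PBS difference (log2) in wild-type mice (x axis) against that in Nav1.8CreROSA26DTA mice (y axis) for the 16253 genes well above background on all arrays, with the 7 acute-phase genes named in red and a dashed line of equal response. Saa1 and Saa2 lie above the line, Lcn2, Hp, Lbp and Cp below it, and Lrg1 close to it.

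Between genotypes, Hp was the 1 acute-phase gene called among the 7 measured on all arrays. Hp was higher in Nav1.8CreROSA26DTA brain by 2.32 ± 0.23 averaged over injections (limma adjusted p = 0.00511), where 0.315% of genes tested were called higher and 0.111% lower. The difference was 3.79-fold with LPS and 6.59-fold with PBS. The wild-type PBS signal of its 1 probe, 10.5, lay near the lowest signal well above background on that array, 7.60. The Hp call ended without the intensity trend (adjusted p = 0.388). Over 9 alternatives its averaged effect ranged from 1.36 to 2.35. Lcn2 averaged 1.24 ± 0.23 higher with an adjusted p of 0.0624. The other averaged genotype differences were 0.59 for Saa1, 0.41 for Cp, 0.21 for Lrg1, −0.15 for Lbp and −0.24 for Saa2, with adjusted p-values of 0.343 to 0.908.

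With LPS, 3 members were at least 2-fold higher in Nav1.8CreROSA26DTA than in wild-type brain, against 0.847% of genes measured on both arrays. They were Saa1 (log2 difference 1.46), Saa3 (1.48) and Hp (1.92). With PBS, Hp (2.72) and Lcn2 (1.86) were at least 2-fold higher in Nav1.8CreROSA26DTA, against 1.23% of genes, and Saa2 was at least 2-fold lower (−1.01), against 0.415% of genes. Of the 7 genes measured on all arrays, 4 were higher in Nav1.8CreROSA26DTA under both injections (Hp, Lcn2, Lrg1 and Cp, after scaling), a pattern that 32% of genes tested had. Cp counts here by its representative probe only, since 2 of its other probes were lower in Nav1.8CreROSA26DTA with LPS.

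Levels of cell type markers also differed between the genotypes, and not those of blood cells alone. By limma, 0 of the 11 neutrophil and 0 of the 4 red cell markers tested were called, whereas 3 of 6 oligodendrocyte markers were called higher in Nav1.8CreROSA26DTA. The median difference of the 7 pericyte and fibroblast markers was −0.05 with LPS and 0.98 with PBS. For the 7 monocyte and macrophage markers tested it was −0.12 with LPS and 0.98 with PBS. The 8 neutrophil markers measured on all arrays were a median of 0.28 higher in Nav1.8CreROSA26DTA than in wild-type brain with LPS and 1.24 higher with PBS. S100a8, which encodes a calcium-binding granule protein of neutrophils, had signals of 1199 in Nav1.8CreROSA26DTA and 662 in wild-type brain with LPS, against 356 in Nav1.8CreROSA26DTA and 21.7 in wild-type brain with PBS. Its wild-type PBS signal was the lowest of these. Over the 8 neutrophil markers, the genotype difference with PBS ran from −0.44 for Csf3r to 4.39 for S100a9, and was 4.29 for S100a8. The summed scaled level of the 12 neutrophil markers was 71.6 in Nav1.8CreROSA26DTA and 66.7 in wild-type brain with LPS, against 53.4 in Nav1.8CreROSA26DTA and 67.1 in wild-type brain with PBS, and Cxcr2 was well above background on 0 arrays. Without Csf3r, the brightest marker, the sums were 8.24 in Nav1.8CreROSA26DTA and 5.82 in wild-type brain with LPS, against 4.56 in Nav1.8CreROSA26DTA and 0.864 in wild-type brain with PBS. With LPS, most of these sums came from S100a9 alone, with signals of 3734 in Nav1.8CreROSA26DTA and 2113 in wild-type brain. The summed level of 5 red cell markers was 155 in Nav1.8CreROSA26DTA and 97.3 in wild-type brain with LPS, against 293 in Nav1.8CreROSA26DTA and 40.1 in wild-type brain with PBS. The part of blood cells, or of any other cell type, in the Hp and Lcn2 differences was not tested.

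**Figure D5:**
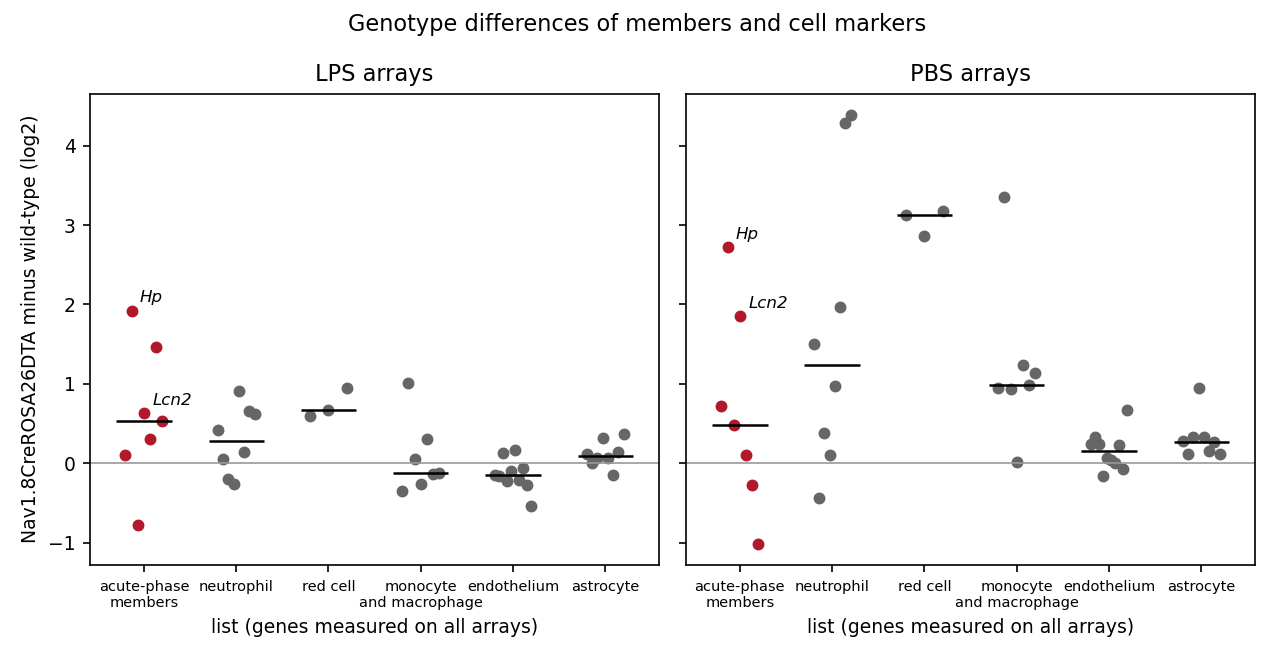
Nav1.8CreROSA26DTA minus wild-type difference (log2) with LPS (left) and PBS (right) for the 7 acute-phase genes measured on all arrays (red) and for marker genes of other cells (grey), with a line at each median. With PBS the medians are 1.24 for 8 neutrophil and 3.13 for 3 red cell markers, beside 0.48 for the acute-phase genes; with LPS they are 0.28, 0.67 and 0.54.

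Among neutrophil markers, 5 of the 11 tested were called higher with LPS (Ly6g, Mmp8, Retnlg, S100a8 and S100a9) and 0 lower, beside 5.62% and 4.53% of all genes tested. Of the 6 without a call, Camp (−0.67), Mpo (−0.79), Elane (−0.24) and Ltf (−0.04) had averaged LPS differences below 0. Ly6g had signals of 304 in Nav1.8CreROSA26DTA and 319 in wild-type brain with LPS, against 39.4 in Nav1.8CreROSA26DTA and 43.5 in wild-type brain with PBS. Monocyte and macrophage markers summed to 21.6 in Nav1.8CreROSA26DTA and 25.1 in wild-type brain with LPS, against 8.19 in Nav1.8CreROSA26DTA and 7.18 in wild-type brain with PBS. Nearly all of this was Ly6c2, and without it the sums were 1.72 in Nav1.8CreROSA26DTA and 1.30 in wild-type brain with LPS, against 1.55 in Nav1.8CreROSA26DTA and 0.611 in wild-type brain with PBS. Of the 7 monocyte and macrophage markers tested, 2 (Ly6c2 and Chil3) were called higher and 0 lower. Of the 5 without a call, Mrc1 (−0.58) and Cd163 (−0.24) had averaged LPS differences below 0, and Lyz2, F13a1 and Ms4a7 above 0. Ccr2, not tested, was well above background on the Nav1.8CreROSA26DTA PBS array only, at 17.8. The part of these cells in the LPS differences was not tested. Of 12 hepatocyte markers, 8 (Alb, Ahsg, Apob, Ambp, Fgb, Cps1, Hpd and Apoa1) were well above background on 0 arrays, beside 5515 of all 23461 genes. Cyp3a11 and Tat were well above it on all arrays, Cyp2e1 on 3 and F2 on 1, and 0 of the 3 tested were called. Their summed level was 0.326 in Nav1.8CreROSA26DTA and 0.411 in wild-type brain with LPS, against 0.390 in Nav1.8CreROSA26DTA and 0.384 in wild-type brain with PBS.

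Other positive acute-phase genes gave a mixed picture. Of 26 listed, 12 were well above background on all arrays, beside 16253 of all 23461 genes. Among these 12, 7 rose with LPS and 0 fell, where 5.62% of all genes tested rose and 4.53% fell. The test took in 18 of the 26 and called 10 higher. The 3 further calls (Cfb, Steap4 and Il1rn) were genes that entered through their LPS arrays, so they are given as lower bounds and add nothing to the count. Serpina3n, a protease inhibitor known as a marker of reactive astrocytes, rose by 5.03 ± 0.19 (limma adjusted p = 6.51e-07). A2m, a broad protease inhibitor of plasma, rose by 3.91 ± 0.23 (adjusted p = 7.48e-06). Among complement genes, C4b rose by 1.60 ± 0.14 (adjusted p = 8.48e-05), and Serping1, the C1 inhibitor, rose by 1.84 ± 0.16 (adjusted p = 9.6e-05). C3 rose by 1.36 ± 0.15 (adjusted p = 5e-04). Without the intensity trend the calls of C4b (adjusted p = 0.0568), Serping1 (0.0574) and C3 (0.0643) ended.

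Cfb (complement factor B) was at least 51.6-fold higher with LPS, Steap4 (a metalloreductase) at least 5.64-fold and Il1rn (the interleukin 1 receptor antagonist) at least 2.84-fold, each not well above background with PBS. The count of 10 that follows includes these genes, so it is not used as support. Without the Nav1.8CreROSA26DTA LPS array the count of genes called higher was 6 in place of 10. The calls of Serping1 (adjusted p = 0.098), C3 (0.0708) and Il1rn (0.127) then ended. The C3 call also ended without the wild-type PBS array (0.121) and without the Nav1.8CreROSA26DTA PBS array (0.0876), as did that of Il1rn (0.07 and 0.0581). Hpx, which encodes the haem scavenger hemopexin, differed by 0.74 ± 0.25 (adjusted p = 0.106) and did not pass.

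Saa4, the constitutive serum amyloid A, was detected in 1 genotype. Its signal was 15.3 in Nav1.8CreROSA26DTA and 2.42 in wild-type brain with LPS, against 96.9 in Nav1.8CreROSA26DTA and 1.70 in wild-type brain with PBS. It was well above background on the Nav1.8CreROSA26DTA arrays only, and was at least 1.27-fold higher than in wild-type mice with LPS and at least 15.2-fold higher with PBS. Its averaged genotype effect did not pass (adjusted p = 0.0587).

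Genes of negative acute-phase proteins, which fall in liver during inflammation, were detected in part. Of 10 listed, 5 were well above background on 0 arrays, beside 5515 of all 23461 genes. A further 1 was so on 1 array, and 4 (Apoa2, F12, Rbp4 and Trf) were so on all arrays. Of these 4, 1 fell, 0 rose and 3 did not pass, with a median of −0.21. The gene that fell was Rbp4, the plasma retinol carrier, by 0.43 ± 0.10 on the log2 scale (limma adjusted p = 0.0223). The Rbp4 call ended whichever array was left out (adjusted p of 0.0759 to 0.361) and under 3 of the scaling settings. Ttr, which encodes the thyroxine carrier of the choroid plexus, was well above background only on the Nav1.8CreROSA26DTA LPS array, at 48.1.

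Of 28 genes for inducing cytokines, their receptors and transcription factors, 25 were tested. LPS raised 13, lowered 1 and left 11 without a call, with a median of 0.81, where 5.62% of all genes tested rose and 4.53% fell. Bcl3, an NF-kB co-regulator, rose by 3.60 ± 0.16, and Osmr, the oncostatin M receptor, by 2.63 ± 0.13. Cebpd, one of the C/EBP factors of the acute-phase response, rose by 1.91 ± 0.10, and Cebpb by 0.80 ± 0.10 (adjusted p = 0.00101). The Cebpb call ended when the variance model had no intensity trend (adjusted p = 0.0776). Socs3, the feedback inhibitor of STAT3 signalling, rose by 1.76 ± 0.12 (adjusted p = 1.7e-05).

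Nfkbiz, which encodes the nuclear co-factor I-kappa-B-zeta, rose by 1.72 ± 0.22 (limma adjusted p = 0.0012), but not without the wild-type PBS (0.0657) or the Nav1.8CreROSA26DTA PBS array (0.0779). Stat3 rose by 0.63 ± 0.10 (adjusted p = 0.00303), and its call ended in 3 of the 4 fits with an array left out, with a highest adjusted p of 0.135. Nr3c1, the glucocorticoid receptor, was the gene that fell, by 0.40 (adjusted p = 0.0263), and it is named after its value was seen. Its call ended whichever array was left out, with adjusted p-values of 0.0729 to 0.445. Il6 had a signal of 32.4 in Nav1.8CreROSA26DTA and 5.89 in wild-type brain with LPS, against 4.2 in Nav1.8CreROSA26DTA and 4.78 in wild-type brain with PBS. Only the first was well above background, so Il6 was at least 2.75-fold higher with LPS in Nav1.8CreROSA26DTA mice. Il1b averaged 0.83 ± 0.26 higher with LPS (adjusted p = 0.0813) and did not pass.

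Among 21 genes for receptors and partners of the proteins, 19 were tested, of which 4 rose, 2 fell and 13 did not pass, with a median of 0.07, where 5.62% of all genes tested rose and 4.53% fell. Tlr2, which senses bacterial lipoproteins and serum amyloid A, rose by 3.35 ± 0.15, and Cd14, to which LPS-binding protein delivers LPS, rose by 2.39 ± 0.13. Fpr2, a formyl peptide receptor that serum amyloid A can engage, rose by 2.04 ± 0.15, and Mc4r, a hypothalamic receptor that lipocalin 2 can engage, rose by 1.35 ± 0.21 (limma adjusted p = 0.00321). Slc40a1, the iron exporter ferroportin that works with ceruloplasmin, fell by 1.30 ± 0.16 on the log2 scale (adjusted p = 7.62e-04), a call that ended when the variance model had no intensity trend (0.0581). Tgfbr1, named after its value was seen, fell by 0.67 (adjusted p = 0.0103).

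Without the wild-type PBS array 2 receptor genes were called higher, since the calls of Fpr2 (adjusted p = 0.074) and Mc4r (0.0647) ended. The Mc4r call also ended without the wild-type LPS array (0.0548) and without the Nav1.8CreROSA26DTA LPS array (0.135), and that of Tgfbr1 ended whichever array was left out (0.0569 to 0.166). Slc22a17, the lipocalin 2 receptor of the cell surface, differed by −0.19 ± 0.10 (adjusted p = 0.293), a direction that turned when arrays were not scaled. Hmox1, the haem oxygenase that lies downstream of haptoglobin uptake, was the 1 receptor or partner gene called between genotypes, lower in Nav1.8CreROSA26DTA by 1.28 on the log2 scale (adjusted p = 0.0461), and it is named after its value was seen. Over 9 alternatives its highest limma adjusted p was 0.476.

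The pattern over the 4 arrays was compared with that of each of the other 16252 genes measured on all arrays, by the root mean square difference of values centred on each gene's mean. For Saa1 the closest genes were Serpina3n (0.284), Ms4a6c (0.391) and AW112010 (0.408). For Saa2 they were Krtap11-1 (0.379), AW112010 (0.387) and Ctla2a (0.428). Saa1 and Saa2 were 0.489 apart, the smallest distance of Saa1 or Saa2 to another member. Lrg1 had Spp1 (0.0976), Batf2 (0.104) and Wfdc17 (0.109) closest to it, and Cp had Gbp3 (0.0442), Emp1 (0.0765) and Oas1a (0.0778).

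Lbp lay closest to Ifi47 (0.213), Ifit1 (0.23) and Plet1 (0.25), and among members to Cp (0.365). Lcn2 had Ccl5 (0.604), Cxcl10 (0.857) and Gbp2 (1.74) nearest, so few genes had a change of its size. Hp had Chil3 (0.692), S100a8 (0.734) and Pilra (0.743) nearest, and among members Cp (0.958). These distances rest on 4 arrays that share their scaling and are descriptions.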

How the data were processed

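Whole-brain RNA, extracted with TRIzol and labelled with Cy3 using Agilent's low-input kit, was measured on 4 single-colour arrays, per the labels' protocols. Agilent Feature Extraction is given as 11.0.1.1 in the submitters' processing notes and as 12.0.3.1 in the file headers, which also name an mm9 design grid. Spot intensity was taken from the deposited processed signal, which is corrected for background and spatial trend, per the file headers. The value table that the authors deposited, in linear intensity, equalled this signal times 1 factor per array (1.57 to 2.09) within 0.1% for at least 59304 of 59305 spots. Its column medians were 102 and 103 with LPS (Nav1.8CreROSA26DTA and wild-type), against 91.4 and 97.2 with PBS (Nav1.8CreROSA26DTA and wild-type), and the origin of the factors is unknown.

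Values were log2 of the signal minus the array's 75th percentile, with outlier-marked spots (81 to 96 per array) left out and spots of a probe averaged. Over 300 probes printed as 10 spots, the SD between spots was 0.0418 to 0.0456 (log2), a within-array technical error. Precision is limited by having 4 arrays. Probes were named through RefSeq accessions in a GRCm38.p6 gene table (33767 of 56605 had 1 symbol). The array's grid uses another build, so only names, neighbours and the promoter table's own windows were taken from it. For genes with several probes, the one well above background on most arrays was used, then the one of highest mean. The limma 3.58.1 model (R 4.3.3, eBayes with an intensity trend, additive terms for genotype and agent, two-sided, Benjamini-Hochberg) ran on 17141 genes well above background on at least 2 arrays, was tested on simulated data, and counts a difference of response as error. Pairs of arrays have no test and were counted at 2-fold. A group not well above background was set to the higher of its own signal and the lowest well-above-background signal on that array (7.60 to 11.5), giving "at least N-fold".

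The members and gene lists were chosen with earlier results of these data known. All members were named; of each other list, up to 5 genes past the threshold by size, up to 3 bounds and genes with a set role were named, and for each member measured on all arrays the 3 genes nearest in pattern. Alternatives changed the scaling, background correction, filter, probe choice, variance trend and the arrays included.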

Additional observations from a re-analysis of the deposited data

Results flagged for a closer look

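For Saa1 the Nav1.8CreROSA26DTA minus wild-type difference was above 0 with LPS and below 0 with PBS, and the difference of the LPS responses was 1.73 (log2). Saa2 had the same signs, with 1.55, as did Nfkbiz, with 0.90. For Lbp the signs were turned, below 0 with LPS and above 0 with PBS, with −1.26. Cebpb (−0.12) and Slc22a17 (−0.16) had the signs of Lbp but small sizes, between the 5th percentile of all genes, −0.605, and the 95th, 0.527. With 1 array in each group, none of these 6 differences was tested.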

How the results depend on the processing

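The 7 members measured on all arrays kept their LPS direction under every alternative run. In the reported fit 8 members were called, among them Saa3, which entered through its LPS arrays and is not counted as support. The count was 7 with genes required on all 4 arrays, with no intensity trend, without the wild-type PBS array and without the Nav1.8CreROSA26DTA LPS array. No paired analysis was possible because each group holds 1 array and the labels carry no replicate numbers. The deposited files hold no mean spot signal, so normexp on the mean signal was not run, and normexp on the median spot signal was used in its place, an alternative chosen after seeing the data, as were the other probes of Lcn2 and Cp. Causes were not tested, except that fits with an array left out have fewer arrays and count the genotype difference as spread.

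Genes called higher with LPS numbered 963, against 1583 with no filter, 374 with no intensity trend and 370 to 514 without 1 array. Genes called lower numbered 777, against 1293 (median scaling), 433 (cyclic loess), 49 (no scaling), 434 (deposited value table), 1170 (normexp), 1567 (no filter), 504 (mean of all probes), 45 (no intensity trend) and 70 to 187 (without 1 array). Of all LPS calls 55.3% were higher, against 42.7% with median scaling, 68.4% with cyclic loess, 93.9% with no scaling and 70.6% with the value table. With no scaling the median LPS difference of all genes was 0.241.

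Between genotypes 54 genes were higher, against 167 (median scaling), 15 (cyclic loess), 20 (value table), 260 (normexp), 654 (no filter), 11 (mean of all probes) and 0 (no intensity trend). Genes lower numbered 19, against 31 (median scaling), 4 (cyclic loess), 4 (no scaling), 8 (value table), 125 (normexp), 304 (no filter), 1 (mean of all probes) and 0 (no intensity trend). Members higher by genotype numbered 1, against 3 with median scaling, 3 with normexp, 5 with no filter and 0 with no intensity trend. Lcn2 was among those gained with median scaling (limma adjusted p = 0.013), and its highest adjusted p over 9 alternatives was 0.52. The 1 member at least 2-fold lower with PBS became 0 with median scaling, cyclic loess and normexp, and the 3 at least 2-fold higher with LPS became 5 with no filter.

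Other positive acute-phase genes called higher numbered 10, against 5 with no intensity trend and 6 to 9 without 1 array, and those called lower 0, against 1 with normexp and 1 with no filter. The 10 include Cfb, Steap4 and Il1rn, which entered through their LPS arrays and are not counted as support. Negative acute-phase genes called higher numbered 0, against 1 with no filter. The 1 negative acute-phase gene and the 1 inducing gene called lower each became 0 with cyclic loess, no scaling, the value table, no intensity trend and without any 1 array. Inducing genes called higher numbered 13, against 7 with no intensity trend and 9 to 11 without 1 array. Receptor and partner genes called higher numbered 4, against 7 with no filter and 2 to 4 without 1 array, and those called lower 2, against 1 with no scaling, 0 with no intensity trend and 1 without any 1 array.

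Signs turned for Saa4 with LPS without the Nav1.8CreROSA26DTA PBS array (1.70, against −1.35 with all arrays and a range of −4.39 to 1.70 without 1 array), for Slc22a17 with no scaling (0.09), for the Saa2 genotype difference with normexp (0.14) and for the Hp difference of responses with normexp (0.63, against −0.80). The Lcn2 difference of responses was −0.54 with normexp and −2.17 with the mean of all probes, and that of Saa2 was 0.75 with normexp.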

Other observations

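Several genes of the wider acute-phase lists were well above background on the Nav1.8CreROSA26DTA LPS array and on no other. Besides Orm1, Orm3, Il6 and Ttr they included Hamp, which encodes the iron hormone hepcidin. Hamp had a signal of 18.2 in Nav1.8CreROSA26DTA and 3.63 in wild-type brain with LPS, against 1.94 in Nav1.8CreROSA26DTA and 1.8 in wild-type brain with PBS. In Nav1.8CreROSA26DTA mice Hamp was thus higher with LPS by a factor of at least 1.55, with no test. The lowest signal well above background on the Nav1.8CreROSA26DTA LPS array was 11.5, so several of these signals were near the limit of detection. That array also had the highest 75th percentile of signal, 726. The share of all genes detected on that array alone was not counted, so no difference between genotypes is drawn from these genes. Ptx3, from the same positive acute-phase list, was well above background on the wild-type LPS array only, with 11.6 in Nav1.8CreROSA26DTA and 13.2 in wild-type brain with LPS. Lrp2, which encodes megalin, a receptor that takes up lipocalin 2, was well above background on the wild-type LPS array only, with a signal of 4.63 in Nav1.8CreROSA26DTA and 22 in wild-type brain with LPS. Choroid plexus markers summed to a scaled level of 1.78 in Nav1.8CreROSA26DTA and 1.51 in wild-type brain with LPS, against 0.726 in Nav1.8CreROSA26DTA and 0.435 in wild-type brain with PBS. Without Aqp1, the brightest of them, the sums were 0.582 in Nav1.8CreROSA26DTA and 0.573 in wild-type brain with LPS, against 0.632 in Nav1.8CreROSA26DTA and 0.397 in wild-type brain with PBS. Oligodendrocyte markers summed to 156 in Nav1.8CreROSA26DTA and 70.7 in wild-type brain with LPS, against 142 in Nav1.8CreROSA26DTA and 97.9 in wild-type brain with PBS. These sums have no test, and each rests on 1 array a group.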
